A study of Homo sapiens with 2 samples.

Results

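The S100 proteins are small calcium-binding proteins, and 10 of their genes were examined here in the human colorectal carcinoma line HCT116, with and without CREB1. The 10 were taken by symbol from a fixed list, as 10 of the 57820 gene identifiers in the deposited table: S100A2, S100A3, S100A4, S100A6, S100A10, S100A11, S100A13, S100A14, S100A16 and S100P. The list was selected on the results of this comparison, the knockout over wild-type ratios of expected counts, so the differences between the libraries are a description and no test was made on them. The study holds 1 library from HCT116 cells with wild-type CREB1 and 1 library from KO-CREB1 cells, called the knockout library from here on. The knockout cells are 1 clone, made with a plasmid carrying nickase Cas9 and guide RNAs against CREB1 and picked for a complete lack of CREB1. The sources used here do not say whether the wild-type cells were also a clone. Both cultures were kept in DMEM with serum and antibiotics, and rRNA-depleted total RNA was sequenced. A difference between the 2 libraries cannot be told apart from a difference between this clone and the wild-type culture.

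An S100 protein carries a pair of EF-hands, a helix-loop-helix fold that holds calcium, and most work as dimers. Calcium binding opens a hydrophobic surface that grips target proteins such as annexins, non-muscle myosin and ezrin, and some S100 proteins are also released from cells and bind the receptor AGER. In colorectal tumours the best known is S100A4, which is linked to invasion and metastasis, while S100A14 is known as a protein of epithelia. CREB1 is a transcription factor that binds the cAMP response element (CRE), whose full form is TGACGTCA and whose core is TGACG.

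The libraries held 34511071 (wild-type) and 31178312 (knockout) expected counts, which are RSEM's estimates of reads per gene. Levels are given as CPM, counts scaled to a common library total, after TMM scaling, which corrects for differences in makeup between libraries, and a gene was called expressed at a mean of at least 1 CPM. Ratios are knockout over wild-type on the log2 scale with a 95% counting interval, which covers the sampling of reads alone and not the variation between cultures, clones or preparations. CREB1 itself had 614 counts in wild-type cells and 499 in knockout cells (18.2 and 15.6 CPM, log2 ratio -0.23, interval -0.40 to -0.05). This value does not check the genotype, because small insertions and deletions can leave RNA to be counted. The change at the CREB1 locus of this clone was not examined here. Of 9 fixed markers of colorectal epithelium, 6 were expressed in these cells, with summed levels of 4018 CPM and 3520 CPM. Most of these sums came from the keratins KRT8 (1822 and 1582 CPM), KRT19 (1036 and 948 CPM) and KRT18 (1029 and 859 CPM). CDX2 had 9.72 and 9.07 CPM. The markers below the limit were VIL1 with 12 and 9 counts, CDH17 with 2 and 1, and CDX1, listed at 0 in both libraries. Markers of leukocytes summed to 0.624 CPM and 0.907 CPM with PTPRC and CD3E at 0, and those of endothelium to 0.743 CPM and 0.688 CPM with CDH5 at 0. Of 6 keratinocyte markers KRT10 was expressed, KRT14, KRT1 and DSG3 were at 0, and the sums were 6.90 CPM and 6.54 CPM.

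The sequences just upstream of the start of the S100 genes are shown first because CREB1 acts through short DNA words near promoters. RefSeq promoters of the GRCh38.p14 build were found for all 10 genes, with 14 start sites in all, and the 250 bases before each start were searched on both strands. The genes shown are S100A14, which had the lowest ratio, S100A6, the most abundant, S100A3 and S100A2, which were also lower, and S100A4, which was higher. They lie on the minus strand of chromosome 1, at chr1:153616326-153616575, chr1:153535992-153536241, chr1:153549259-153549508, chr1:153565845-153566094 and chr1:153545807-153546056 in that order. Each is written 5′ to 3′ on the strand of its gene, and capitals mark the CRE core TGACG (or CGTCA, its reverse complement) and the AP-1 letters TGANTCA.
S100A14: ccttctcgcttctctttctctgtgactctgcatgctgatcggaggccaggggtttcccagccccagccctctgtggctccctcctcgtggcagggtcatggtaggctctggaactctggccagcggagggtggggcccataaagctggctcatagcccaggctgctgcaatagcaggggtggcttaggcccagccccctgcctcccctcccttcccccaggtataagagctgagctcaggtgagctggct
S100A6: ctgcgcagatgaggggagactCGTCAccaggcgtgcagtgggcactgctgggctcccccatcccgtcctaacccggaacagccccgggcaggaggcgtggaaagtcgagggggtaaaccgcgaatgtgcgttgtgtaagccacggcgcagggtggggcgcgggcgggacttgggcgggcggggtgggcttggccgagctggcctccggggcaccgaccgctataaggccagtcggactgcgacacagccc
S100A3: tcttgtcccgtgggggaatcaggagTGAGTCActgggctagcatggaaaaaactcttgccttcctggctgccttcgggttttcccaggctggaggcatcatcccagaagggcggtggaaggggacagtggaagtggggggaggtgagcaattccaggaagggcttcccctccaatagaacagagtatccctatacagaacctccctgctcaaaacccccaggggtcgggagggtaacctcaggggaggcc
S100A2: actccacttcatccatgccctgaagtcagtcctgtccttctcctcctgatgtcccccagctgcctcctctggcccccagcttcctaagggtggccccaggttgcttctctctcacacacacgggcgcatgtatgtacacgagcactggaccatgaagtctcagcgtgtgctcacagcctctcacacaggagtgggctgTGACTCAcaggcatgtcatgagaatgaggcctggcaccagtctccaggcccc
S100A4: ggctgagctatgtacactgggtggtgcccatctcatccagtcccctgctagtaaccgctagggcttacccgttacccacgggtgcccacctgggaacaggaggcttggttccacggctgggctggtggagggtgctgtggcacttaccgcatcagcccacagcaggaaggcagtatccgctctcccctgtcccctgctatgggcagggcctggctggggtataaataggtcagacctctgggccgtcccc

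The full CRE was found in 0 of the 14 S100 windows, and in 1.65% of all 35116 promoter windows of the same length. Its core TGACG, which also lies within the full form, was found in 3 S100 windows and in 21.2% of all windows. The 3 belonged to S100A6, where it begins 229 bases before the start, to S100P, 141 bases before, and to the most downstream of the 3 starts of S100A13, 101 bases before. S100A14, the gene with the lowest ratio, had neither the full word nor its core in this window. The AP-1 letters were found in S100A3, 225 bases before its start, and in S100A2, 52 bases before the more upstream of its 2 starts, against 6.57% of all windows. The E-box CACGTG was in 0 of the S100 windows (6.34% of all windows), and TATAAA was in 3, those of S100A4, S100A13 and S100P (10.7% of all windows). A match of letters is no evidence of binding, and a missing match describes only these windows.

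S100A14 stood apart from the other members. It had 3475 counts in wild-type cells and 768 in knockout cells, or 103 CPM and 24.0 CPM. The knockout library was thus 4.30-fold lower (interval 3.98 to 4.66), a log2 ratio of -2.10. In bulk RNA, fewer cells with a transcript and less of it per cell cannot be told apart. Of 12886 expressed genes, 29, S100A14 included, had a ratio as low or lower. Among the 2006 protein-coding genes with at least 50 CPM on average it had the lowest. Of all 2100 genes at that level, 0.571% were at least 2-fold lower and 0.667% at least 2-fold higher. The nearest to S100A14 in ratio, among the 2006 protein-coding genes, was the Wnt antagonist DKK1 at -1.54 (4606 and 1500 counts). It was followed by the GTPase gene RAC3 at -1.35 and DCXR, an enzyme of sugar metabolism, at -1.29, both on chromosome 17. With 2 libraries this likeness rests on a lone ratio per gene.

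S100A2 and S100A3, which lie next to each other in gene order, had nearly the same ratio. S100A2, a mostly nuclear member known from epithelia, had 807 counts in wild-type cells and 494 in knockout cells (24.0 CPM and 15.4 CPM), 1.55-fold lower with a log2 ratio of -0.63 (interval -0.80 to -0.47). S100A3, best known from the hair cuticle, had 146 and 89 counts (4.34 CPM and 2.78 CPM), 1.56-fold lower with a log2 ratio of -0.64 (interval -1.04 to -0.25). S100A3 is the least abundant expressed member, and its interval spans from a small difference to more than 2-fold. It also overlaps S100A4 on the same strand in GENCODE 29, and although the counts of both were whole numbers, how reads were divided between the pair is uncertain.

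S100A6, also called calcyclin, was the most abundant member in both libraries. It had 36601 counts in wild-type cells and 25549 in knockout cells, or 1088 CPM and 799 CPM, which placed it 29th and 47th among protein-coding genes by CPM. The level was 1.36-fold lower in the knockout library (log2 ratio -0.45, interval -0.47 to -0.42). Its depth makes the counting interval narrow, and the interval is no measure of how far 2 cultures of the same cells would differ.

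3 members were higher in the knockout library. S100A4, which binds non-muscle myosin IIA, had 9711 counts in wild-type cells and 12292 in knockout cells (289 CPM and 384 CPM), 1.33-fold higher with a log2 ratio of 0.41 (interval 0.38 to 0.45). S100A10, the partner of annexin A2 and a member whose EF-hands no longer bind calcium, had 765 and 1018 counts (22.7 CPM and 31.8 CPM), 1.40-fold higher with a log2 ratio of 0.49 (interval 0.35 to 0.62). S100A11, a partner of annexin A1, had 525 and 628 counts (15.6 CPM and 19.6 CPM), 1.26-fold higher with a log2 ratio of 0.33 (interval 0.16 to 0.50). S100A4 is also used as a fibroblast marker, and the other fibroblast markers were nearly absent: of 7, only COL1A1 was expressed, COL1A2 and LUM were at 0, and the 7 summed to 2.68 CPM and 2.88 CPM.

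The remaining members were close to equal or hardly detected. S100A16 had 3336 and 3000 counts (99.1 CPM and 93.8 CPM, log2 ratio -0.08, interval -0.15 to -0.01). S100A13, which takes part in the release of FGF1, had 1926.61 and 1640.75 expected counts (57.3 CPM and 51.3 CPM, log2 ratio -0.16, interval -0.25 to -0.06). It is the member with fractional counts, it overlaps S100A1 on the opposite strand and AL162258.1 on its own strand, and S100A1 and AL162258.1 each had under 1 CPM. When the libraries were scaled by their total counts instead, the intervals of S100A16 (-0.08 to 0.06) and S100A13 (-0.18 to 0.01) included no difference. S100P, which binds ezrin, had 4 counts in wild-type cells and 3 in knockout cells, a log2 ratio of -0.30 with an interval of -3.11 to 2.22, so that no difference was detectable at this depth.

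**Figure D1:**
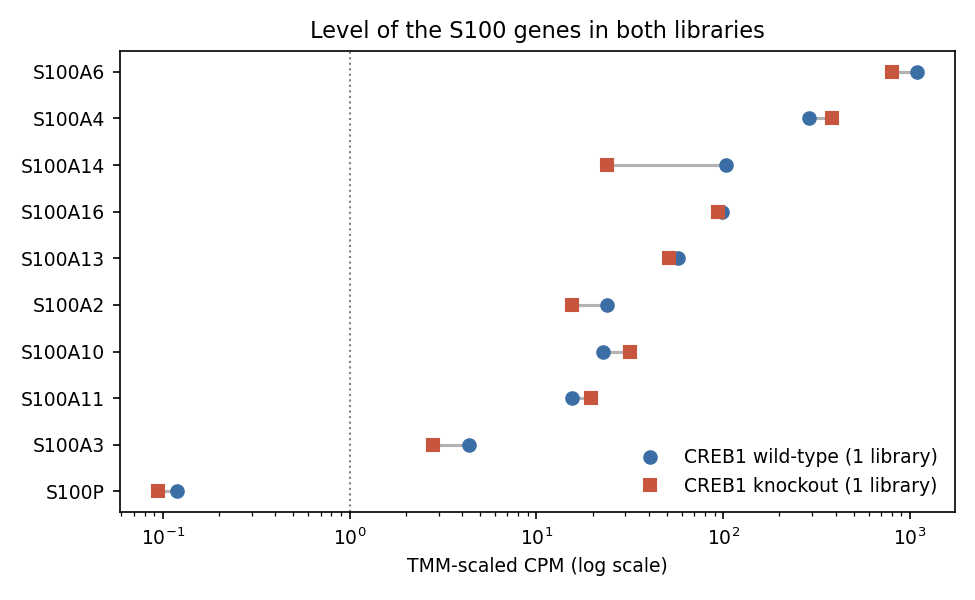
Level of each S100 gene in TMM-scaled CPM (horizontal log axis) in the wild-type (circles) and knockout (squares) library, with the dotted line at 1 CPM. S100A14 has the longest bar between its points, from 103 CPM to 24.0 CPM, and S100P lies below 1 CPM in both libraries.

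Counting the members, 9 of 10 were expressed, and 1 of the 9, S100A14, was at least 2-fold lower with an interval that excluded no difference, where 1.64% of all expressed genes were called so. No member was at least 2-fold higher, against 1.28% of expressed genes. At 1.5-fold, S100A14, S100A2 and S100A3 were lower and 0 members higher, where 5.50% and 5.25% of expressed genes were. The interval lay wholly below no difference for 6 of the 9 and wholly above for 3. Over all 12886 expressed genes, not matched to the members for depth, this was so for 25.5% and 26.4%. The median log2 ratio of the 9 was -0.16, beside 0.01 over all expressed genes. Because the list was chosen with this comparison in view, nothing is read from these counts.

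**Figure D2:**
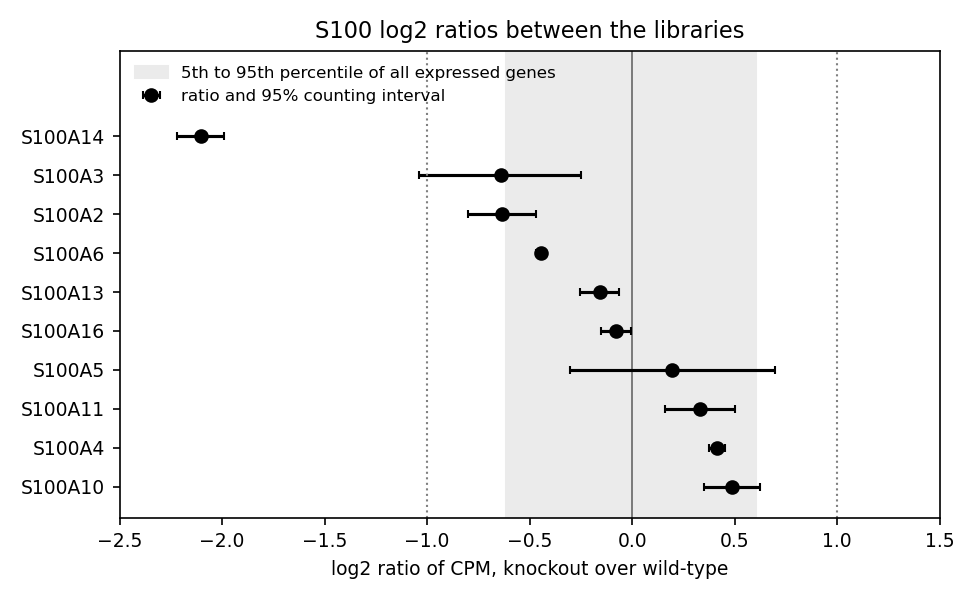
Log2 ratio of CPM, knockout over wild-type, with 95% counting intervals for the 9 expressed members and S100A5, a family gene outside the list of 10; dotted lines mark 2-fold and the grey band holds the 5th to 95th percentile of all expressed genes (-0.62 to 0.60). S100A14 at -2.10 lies far below the band, S100A3 and S100A2 lie at its lower edge, and the other genes lie inside it.

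The levels of different members can be compared per length of transcript. With the longest principal transcript of each gene in GENCODE 29, S100A6 was highest in the wild-type library at 1616 CPM per kb, followed by S100A4 at 481 CPM per kb. A group of 3 followed within a narrow range, S100A16 at 86.5, S100A14 at 84.8 and S100A13 at 83.5 CPM per kb. Then came S100A11 at 26.3, S100A2 at 24.0 and S100A10 at 18.9, S100A3 at 5.07 and S100P at 0.093 CPM per kb. With the shortest protein-coding transcript in place of the longest, the order changed within the group of S100A16, S100A14 and S100A13 and within that of S100A11, S100A2 and S100A10, so neighbours in these groups are not told apart.

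In the knockout library S100A14 left its group. It stood at 19.7 CPM per kb, beside 81.9 for S100A16 and 74.8 for S100A13, and ranked 7th of the 10, below S100A11 (33.1) and S100A10 (26.5). S100A6 remained first at 1187 CPM per kb and S100A4 second at 641 CPM per kb, and both ranks also held with the shortest transcripts. With those, S100A14 ranked 5th in wild-type cells and 8th in knockout cells.

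Ratios between members within a library do not depend on how the libraries are scaled. For each count of S100A16 there were 1.04 counts of S100A14 in wild-type cells and 0.256 in knockout cells, a 4.07-fold difference (interval 3.71 to 4.47). Relative to S100A13, its neighbour on the other side, S100A14 was 3.85-fold lower (interval 3.47 to 4.27). S100A16 and S100A13, by contrast, stood to each other as 1.73 counts to 1 in wild-type cells and as 1.83 to 1 in knockout cells, and the interval of that difference, 0.972 to 1.15, included no change. S100A4 and S100A6 moved apart: the number of S100A4 counts per S100A6 count was 0.265 in wild-type cells and 0.481 in knockout cells, 1.81-fold higher (interval 1.76 to 1.87).

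Together the 10 genes held 57297 counts in wild-type cells and 45482 in knockout cells, or 1703 CPM and 1422 CPM. This was 0.166% of the wild-type counts (exact binomial 95% interval 0.165% to 0.167%) and 0.146% of the knockout counts (0.145% to 0.147%). Most of the sum was S100A6, with 63.9% in wild-type cells and 56.2% in knockout cells. The share of S100A4 was 16.9% and 27.0%, and that of S100A14 was 6.06% and 1.69%.

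**Figure D3:**
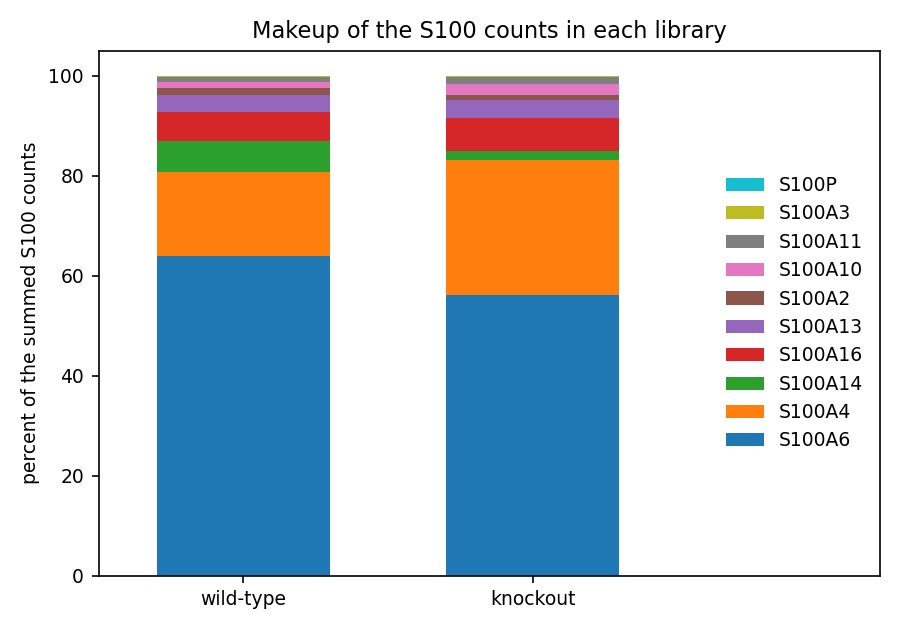
Makeup of the summed S100 counts, in percent, in each library, with each colour standing for a member. S100A6 takes the largest part of both bars (63.9% and 56.2%), the S100A4 part is larger in the knockout library (16.9% and 27.0%), and the S100A14 part is smaller there (6.06% and 1.69%).

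All but S100P lie in the S100 cluster of chromosome 1, in band 1q21, and gene order (that of GENCODE 29, GRCh38) was used to see which neighbours shared the differences. S100A10 and S100A11 stand side by side at the near end, and both were higher in the knockout library. At the far end the expressed genes follow as S100A6, S100A5, S100A4, S100A3, S100A2, S100A16, S100A14 and S100A13, with log2 ratios of -0.45, 0.20, 0.41, -0.64, -0.63, -0.08, -2.10 and -0.16. The ratios of S100A4 and S100A3, which overlap, thus differed in direction, though how reads were divided between the pair is uncertain. The expressed genes from S100A3 to S100A13 all had ratios below 0. The direct neighbours of S100A14 were 1.06-fold (S100A16) and 1.12-fold (S100A13) lower. S100A5, expressed chiefly in olfactory cells, had 67 and 73 counts, with an interval of -0.30 to 0.70 that included no difference.

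Between these 2 ends, 47 genes that are not S100 genes, mostly of the epidermal cornified envelope, were listed, of which 45 matched the table, and 0 were expressed. Of the 45, 41 were at 0 in both libraries, and the others held 4 counts in wild-type cells and 11 in knockout cells together. Of the 20 protein-coding genes before S100A10, 13 were expressed, with a median log2 ratio of -0.01, and of the 20 after S100A13, 15 were expressed, with a median of 0.09. These 28 flanking genes lay between -0.41 and 0.45, and 0 were called at 2-fold or at 1.5-fold. Of all expressed genes, 1.64% were lower and 1.28% higher at 2-fold, and 5.50% and 5.25% at 1.5-fold. Those far from 0 included INTS3, a subunit of the Integrator complex (0.43), the thioesterase THEM4 (-0.41) and the mitochondrial ribosomal protein MRPL9 (0.34). Around S100P on chromosome 4, 12 of 19 matched neighbours were expressed, with log2 ratios from -0.44 (GRPEL1) to 0.52 (MAN2B2), AFAP1 at 0.37 and KIAA0232 at 0.37. Of these 12, 0 were called at 2-fold or at 1.5-fold, beside the same shares of all expressed genes.

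**Figure D4:**
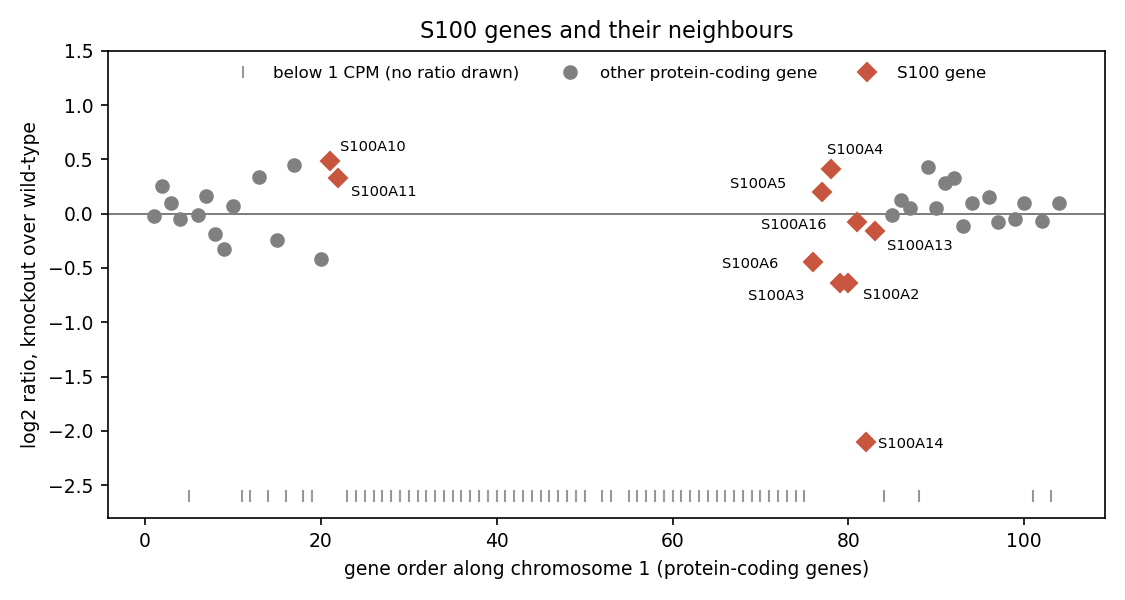
Log2 ratio, knockout over wild-type, of expressed protein-coding genes in their order along chromosome 1, with S100 genes as diamonds, other genes as circles and genes below 1 CPM as ticks at the bottom. The flanking genes lie between -0.41 and 0.45, genes below 1 CPM fill the middle, and S100A14 lies alone at -2.10.

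Of the 11 other S100 genes, S100A5 was expressed and 10 were below 1 CPM. S100A1, known from heart muscle, had 12 and 8 counts (log2 ratio -0.49, interval -2.01 to 0.90). S100B, known from glia, had 0 and 3 counts, and S100Z had 1 and 0. The other 7, S100A7, S100A7A, S100A7L2, S100A8, S100A9, S100A12 and S100G, were at 0 in both libraries, which allows up to 0.0892 CPM in wild-type cells and 0.0938 CPM in knockout cells. S100A8, S100A9 and S100A12 are the members known from myeloid cells and S100A7 from inflamed skin. The fused-type S100 genes and cornified envelope genes, 19 in number, held 0 expressed genes, and 16 of them were at 0 in both libraries.

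Genes for proteins that S100 proteins bind were taken as a list of 25. Of these, 21 were expressed, 10 with ratios above 0 and 11 below, with a median log2 ratio of -0.01. At 2-fold 0 were called, where 1.64% of all expressed genes were lower and 1.28% higher. At 1.5-fold 1 partner was lower and 1 higher, where 5.50% and 5.25% of expressed genes were. The lower one was the scaffold IQGAP1, a target of several S100 proteins (5504 and 2984 counts, log2 ratio -0.81, interval -0.87 to -0.75). The higher one is not reported here. The membrane linker EZR, a partner of S100P, had 31003 and 20583 counts (log2 ratio -0.52), and S100PBP, a nuclear protein that binds S100P, had 475 and 565 counts (log2 ratio 0.32). The receptor gene AGER had 29 and 28 counts, below the limit for an expressed gene, and TLR4 was at 0 in both libraries.

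Some partners that pair with a named member were picked out after their values had been seen. Those described next lie on the same side of 0 as their member. Of the 21 expressed partners on the whole list, 10 had ratios above 0 and 11 below. AHNAK, also on that list, had 13885 and 11098 counts (log2 ratio -0.25). Whether members and partners move together was not tested. ANXA2, which forms a tetramer with S100A10, had 33293.82 and 39068.79 expected counts (989 CPM and 1222 CPM, log2 ratio 0.30, interval 0.28 to 0.33). S100A10 and ANXA2 were thus both higher in the knockout library, and the count of S100A10 per count of ANXA2 was 0.0230 and 0.0261, 1.13-fold higher (interval 1.03 to 1.25). ANXA1, the partner of S100A11, had 9510 and 9831 counts (log2 ratio 0.12), and CACYBP, which binds S100A6, had 3132.62 and 2488.57 expected counts (log2 ratio -0.26, interval -0.34 to -0.18). MYH9, the myosin heavy chain that S100A4 binds, had 7913 and 8859 counts (log2 ratio 0.24).

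Genes for other EF-hand proteins were spread evenly about 0. Of 34 listed, 31 were expressed, 15 above 0 and 16 below, with a median log2 ratio of -0.02 and a range of -0.39 to 0.36. At 2-fold 0 were called, where 1.64% of all expressed genes were lower and 1.28% higher. At 1.5-fold 0 were called as well, where 5.50% were lower and 5.25% higher. No test was made on these counts. The farthest were CIB1, a calcium- and integrin-binding protein (-0.39), the neuronal calcium sensor NCS1 (-0.36), reticulocalbin RCN1 (0.36) and nucleobindin NUCB1 (0.33).

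**Figure D5:**
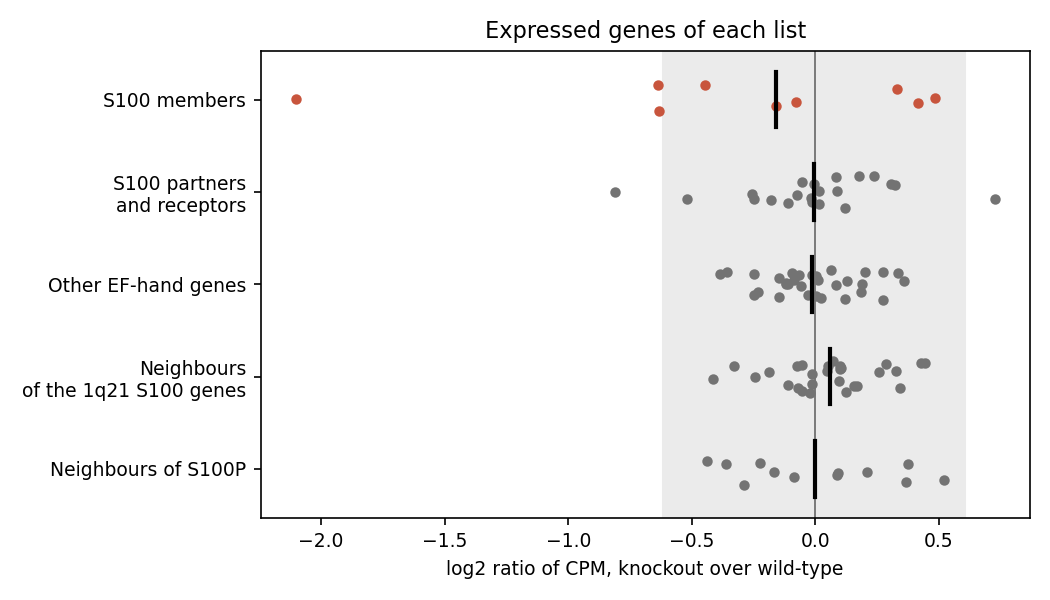
Log2 ratio, knockout over wild-type, of the expressed genes of each list (points, spread vertically for clarity) with the median of each list (black bar) and the 5th to 95th percentile of all expressed genes (grey band). The medians of the 4 lists of other genes lie between -0.02 and 0.06, and S100A14 is the point at -2.10, farther from 0 than any other gene drawn.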

How the data were processed

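RNA was measured in 1 wild-type and 1 knockout library. The authors deposited expected counts per gene, estimates that need not be whole, unscaled between libraries. The submitters' processing notes name hg19 and the tools RSEM 1.2.26, STAR 2.4.2a and cutadapt 2.0; annotation release, strand setting and filters are not given in the sources. RSEM divides reads that fit several genes among them.

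Of 57820 identifiers, 52338 (90.5%) were named from GENCODE 29 (GRCh38) without versions. Unmatched identifiers, with 37.0% of wild-type and 35.2% of knockout counts, stayed in the totals, and 0 value columns were left unmapped. Counts were rounded and scaled with TMM (edgeR 4.0.16, R 4.3.3), and log2 ratios used a prior count of 0.5. Intervals are exact (Clopper-Pearson) 95% intervals of the conditional binomial, or exact conditional intervals of 4 counts for ratios between genes. They, and the floor of 3 counts, cover counting error only. With 1 library per group no p-value was computed. A call needed a mean of at least 1 CPM, 2-fold and an interval without 0. It was tested on simulated data for this comparison (counting error only, 10006 genes with a mean of at least 5 CPM, 200 changed). It called 100% of genes changed 4-fold or 3-fold, 52% of those changed 2-fold and 0% of the unchanged. Expressed genes from 1 to 5 CPM, S100A3 among them, were not scored there. Alternatives were total-count scaling, DESeq2 1.42.0 size factors, TMM over protein-coding genes, a prior count of 2, no filter, at least 5 CPM and 1.5-fold. Shortest transcripts were added after seeing the data.

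The members and lists were chosen with earlier results of these data known. By rule, the genes named are the members, CREB1, other S100 genes with a count and the 3 abundant protein-coding genes nearest to the lowest member. From each other list the rule names every called gene and up to 4 further expressed genes with the largest ratios in size. Further genes were named outside the rule, among them the partners ANXA1, MYH9 and AHNAK and the receptor genes AGER and TLR4. Some genes that the rule names are not reported here. Promoter sequences are from RefSeq (GRCh38.p14).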

Additional observations from a re-analysis of the deposited data

How the results depend on the processing

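Of 184 values recomputed under the planned settings, 167 stayed within a set limit, and 0 called values changed sign. The limit was their counting interval, for counts 1.5 times, or for medians the median half-width of their genes' intervals. Levels per kb with the shortest transcript are not among the 184. Of these levels, all but those of S100A11 and S100P moved, for example S100A2 in wild-type cells from 24.0 to 52.9 CPM per kb. Of 36 recomputed medians, 6 changed sign: without a filter that of the other S100 genes went from 0.20 (S100A5 alone) to -0.15, and the other 5, of the partners, the EF-hand genes and the S100P neighbours, lay within 0.073 of 0 after the change. The log2 ratio of S100A14 lay between -2.12 (DESeq2 size factors) and -2.03 (total-count scaling). Total-count scaling shifted the median of all expressed genes from 0.01 to 0.08. It moved S100A4 to 0.49, S100A6 to -0.37, S100A16 to -0.0066 and the median of the S100 partners to 0.068, and the summed members to 1660 CPM in the wild-type and 1459 CPM in the knockout library. It also turned the balance of called genes, with 201 higher and 167 lower in place of 165 and 211. At 1.5-fold, 3 members were lower, 709 genes were lower and 677 higher, and of the partners 1 was lower and 1 higher. Without a filter 635 genes were lower and 451 higher, the median of the S100P neighbours was -0.17 and 1 of them was lower. With at least 5 CPM, 62 genes were lower and 75 higher. Under that filter the other S100 genes, and under each of the settings with a CPM filter the cornified envelope genes, gave no median because 0 were left. No paired analysis was possible because each group has 1 library, and for the same reason no library could be left out. S100P, with 4 and 3 counts, is limited by depth.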
